A study of Macaca mulatta with 23 samples.

Results

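The data described here are the changes in gene expression in blood CD8+ effector memory T cells (CD8+ TEM) of 5 rhesus macaques after an antibody against interleukin-15 (anti-IL-15), each animal set against itself before treatment. They comprise the 10 arrays of the 5 animals labelled as given anti-IL-15 that had an array at both times, of 23 arrays and 12 animals in all. Animals keep the numbers 1, 2, 4, 5 and 6, since animal 3 had only an array after treatment and stayed out of the comparison. The other arm of the study received an IgG1 control antibody and comprised 12 arrays of 6 animals, 6 after and 6 before treatment. Cells were sorted from peripheral blood mononuclear cells and their total RNA was hybridised to Illumina bead arrays. The dose, the interval between the times and the strain, age and infection status of the animals are not given in the sources used here. Probes were designed on human transcripts, and one that pairs badly with the macaque sequence can read low.

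IL-15 is a cytokine that keeps natural killer cells and memory T cells of the CD8+ lineage alive and dividing slowly in the absence of antigen. It is held on the IL-15 receptor alpha chain of one cell and presented to a neighbour that carries IL2RB and the common gamma chain IL2RG, where the kinases JAK1 and JAK3 activate the transcription factors STAT5A and STAT5B. Effector memory cells are antigen-experienced T cells that lack the lymph node homing receptors, circulate through blood and tissues, and carry perforin and granzymes ready for release.

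Of 9190 genes tested, 77 had an adjusted p under 0.05 in the limma fit of the change after anti-IL-15 (0.838%), with 42 higher (0.457%) and 35 lower (0.381%). By p, the genes that fell were led by BCL2, which protects cells from death, and RAB27B, which serves the release of granules. By size, those that rose were led by the interferon-induced genes IFI27 and ISG15 and the mitotic gene CDC20. Of the higher genes 39 of 42 moved the same way in 5 of 5 animals, and of the lower genes 34 of 35 did, while 1114 of all genes tested did so in either direction (12.1%). The 5 values after treatment and the 5 before did not overlap for 17 of the higher and 18 of the lower genes, and for 231 of all genes tested (2.51%). The genes were called on these same animals, so the counts of same direction and of no overlap follow in part from the choice. The median change of all genes tested was -0.05 on the log2 scale. Scaling the arrays by their 75th percentile moved that median to 0.06 and gave 68 higher and 35 lower genes, the authors' own normalised table gave 46 and 25, and no background correction gave 46 and 23. The count of 77 genes became 5 when animal 1 was left out, 11 for animal 2, 21 for animal 4, 41 for animal 5 and 164 for animal 6. Through the shared estimate of the spread it became 139, 30 and 39 without control animals 4, 5 and 6. It was 1 with no replicate block, with BCL2 as that gene, and each of the 77 kept its direction in every alternative in which it was tested. Of 24 alternatives, RAB27B was called in 22, HLA-DRA in 19, BCL2L1 in 18 and PSMB10 in 14. CX3CR1 was called in 12, and GBP2 and HLA-DMB in 11 each.

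The sorted cells were checked against their label. CD3D and CD8A were detected on all 10 arrays, with log2 intensities of 13.7 to 13.9 and 12.1 to 12.5 after treatment, against 13.5 to 13.6 and 12.3 to 13.2 before. The probe for CD4 was detected on none of the 10 arrays. Of 16 naive and central memory genes with a probe, 10 were detected on some array and 6 on none. IL7R, FOXP1, KLF2 and S1PR1 were detected on all 10, ACTN1 on 4 of 5 after and 5 of 5 before treatment, CD27 on 3 and 5, LEF1 and BACH2 on 3 and 4, and CCR7 on 2 and 1, whereas CD28 was among those detected on none. The summed linear intensity of the 16 was 9662 to 15059 after treatment and 14075 to 19183 before. CD8B was detected on 4 arrays, CD3E on 1 and PTPRC, the pan-leukocyte antigen CD45, on none, so a low reading of a human probe is no measure of the macaque transcript. The same mass of RNA entered each amplification, so a level is a share of total RNA, and fewer cells of a type cannot be told apart from less RNA per cell.

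Technical measures differed between the times. The animals yielded 42000, 35000, 20000, 109000 and 107000 sorted cells after treatment, against 274000, 219000, 112000, 259000 and 260000 before, in the order of animals 1, 2, 4, 5 and 6, which is used throughout. In the same animals the level of the 28S ribosomal RNA probe changed by 3.66, 4.28, 0.14, 4.10 and -1.91 on the log2 scale. Control animals 1 to 6 yielded 100000, 75000, 103000, 66000, 231000 and 259557 sorted cells after treatment. Before it they yielded 500000, 375000, 152000, 500000, 218000 and 150000. Their 28S changes ran from -3.62 to 4.10. With log2 cell number as a covariate 2 genes were called, of which 1, BCL2, was among the 77, and with the 28S probe 18 were, each of them among the 77. The 11 higher ones of these 18 were CCNA2, GBP2, GINS2, H4C12, H4C9, IFI27, ISG15, MYL6B, NDUFB7, TRIB1 and TYMS. The 7 lower ones were BCL2, CCND2, CPNE8, IGIP, LFNG, NCR3 and RAB27B. HLA-DRA, CDC20, CENPW, BCL2L1, RUNX3 and CX3CR1 were among those not called with the 28S probe. In anti-IL-15 animals 4 and 6, in which the 28S probe did not rise by more than 0.14, the median change of the 42 higher genes was 0.99 and 1.05, and that of the 35 lower genes was -1.23 and -0.67. In anti-IL-15 animals 1, 2 and 5 these medians were 1.21, 1.18 and 1.18 for the higher and -1.34, -0.91 and -1.07 for the lower genes. The genes were called on all of these animals together, so the size and direction of the medians follow in part from the choice. The part of cell number and of RNA quality in the results below was not tested beyond these fits.

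BCL2 was the called gene with the smallest p and the largest fall. BCL2, whose protein blocks the mitochondrial route to apoptosis, had log2 intensities of 4.73, 5.47, 5.30, 5.59 and 4.88 after anti-IL-15, against 7.18, 7.56, 7.28, 7.41 and 7.58 before treatment. Every value after treatment lay below every value before, and the probe was detected on 3 of 5 arrays after and on 5 of 5 before. It fell by 2.21 on the log2 scale (SE 0.22, limma adjusted p = 2.0e-05), or 4.62-fold. The other BCL2 probes had changes of -1.43, -0.48 and -0.36, all in the same direction. BCL2 kept its call in all 23 alternatives in which it was tested, with a change of -1.01 where no background was subtracted.

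BCL2L1, which encodes the survival protein BCL-xL, had values of 9.39, 8.70, 8.59, 9.52 and 9.36 after treatment, against 10.52, 9.97, 9.93, 10.46 and 10.02 before. The groups did not overlap, and it fell by 1.07 (SE 0.21, limma adjusted p = 0.0241), although another, dimmer BCL2L1 probe had a change of 0.46. MCL1, a further survival protein of the family, was at 6.32, 6.43, 5.48, 7.01 and 6.35 after treatment, against 5.52, 5.72, 5.56, 5.44 and 6.10 before, and did not pass the test (0.65, SE 0.25). Of the 12 BCL2 family genes tested 2 fell, none rose and 10 were not called, with a median change of 0.02 against -0.05 over all genes tested. The tested family members that trigger or carry out cell death were among those not called, such as BAX (0.26), BAK1 (-0.11) and BID (-0.36). The list held 19 genes, of which these 12 were tested, and BCL2L11 was not tested.

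CCND2, the D-type cyclin that couples cytokine signals to entry into the cell cycle, stood at 7.40, 7.78, 7.96, 7.85 and 8.11 after treatment, against 8.63, 8.94, 8.79, 8.82 and 8.87 before. All 5 later values lay below the earlier ones, and CCND2 fell by 0.99 (SE 0.18, limma adjusted p = 0.0175), or 1.99-fold. A second CCND2 probe had a change of -0.84. The list of 13 D cyclins, cyclin-dependent kinase inhibitors and pocket proteins held no other called gene, with values of 0.95 for the G1/S cyclin CCNE1 (adjusted p = 0.0601), -0.44 for the inhibitor CDKN2D and -0.47 for the pocket protein RBL2.

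BCL2, BCL2L1 and CCND2 were also the 3 called genes, all lower, among the 21 tested feedback and target genes of STAT5. The median of that list was -0.02, and it was 0.11 with 75th percentile scaling. SOCS2, a feedback inhibitor of cytokine receptors, had values of 4.47, 4.55, 4.58, 4.57 and 4.36 after treatment, against 5.39, 5.07, 5.01, 4.88 and 4.67 before, close to the background of the arrays. It was detected on 0 of 5 arrays after treatment and 4 of 5 before. Its mean was at least 1.04-fold lower, and it did not pass the test (limma adjusted p = 0.130). CISH, another feedback inhibitor, was lower in 5 of 5 animals (-0.32, adjusted p = 0.247), while SOCS1 was higher in 5 of 5 (0.67, adjusted p = 0.145). The survival kinase PIM1 had a change of -0.35 (adjusted p = 0.554). In the control arm its change was -0.62, lower in 6 of 6 animals (limma adjusted p = 0.157).

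**Figure D1:**
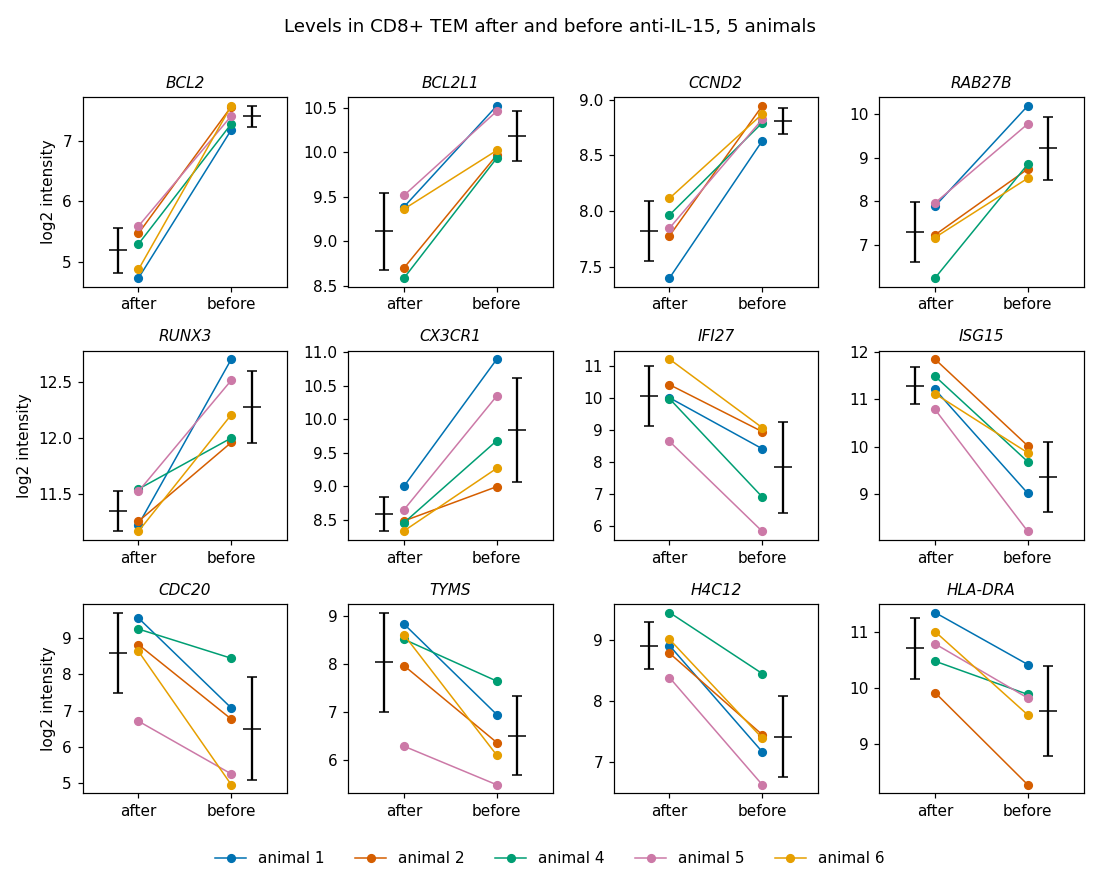
Log2 intensity of 12 genes in CD8+ TEM after (left) and before (right) anti-IL-15, with 1 line per animal and a black bar for the mean ± SD of the 5 animals. BCL2, BCL2L1, CCND2, RAB27B and RUNX3 lie lower and ISG15 higher after treatment without overlap, while IFI27, CDC20, TYMS, H4C12, HLA-DRA and CX3CR1 move the same way in all 5 animals with overlapping ranges.

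No gene of the IL-15 receptor, of its kinases or of the STATs passed the test. IL2RB, the signalling chain shared by the IL-2 and IL-15 receptors, had values of 6.37, 6.51, 6.18, 6.61 and 6.58 after treatment, against 7.49, 7.65, 6.85, 7.13 and 6.81 before. The groups did not overlap, and the change of -0.73 (SE 0.23) had a limma adjusted p of 0.142. In the control arm IL2RB had a change of -0.71, lower in 5 of 6 animals (limma adjusted p = 0.0693). The difference between the arms was -0.02 (limma adjusted p = 0.987). IL2RG had a change of -0.37, JAK1 of -0.08, STAT5A of 0.12 and STAT5B of 0.14, with adjusted p-values of 0.575 to 0.889. IL15 itself, at 5.02 to 5.50 after treatment and 4.49 to 5.39 before, had a change of 0.41 (adjusted p = 0.334). IL15RA, JAK3, CD4 and the proliferation marker MKI67 were not among the genes tested. Over the 16 genes of the receptor list that were tested the median was -0.11, and it was 0.01 with 75th percentile scaling.

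Several genes of cell division rose after anti-IL-15. CDC20, which activates the anaphase-promoting complex, had values of 9.54, 8.81, 9.24, 6.71 and 8.63 after treatment, against 7.07, 6.76, 8.44, 5.26 and 4.96 before. The ranges overlapped through animal 5, whose later value of 6.71 lay within the earlier range, and each animal rose, by 0.80 to 3.66. CDC20 rose by 2.09 (SE 0.41, limma adjusted p = 0.0241), or 4.24-fold. In the control arm its change was 0.97, higher in 5 of 6 animals (limma adjusted p = 0.147). The difference between the arms was 1.12 (limma adjusted p = 0.529).

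CENPW, a component of the kinetochore that attaches chromosomes to the spindle, rose by 1.59 (SE 0.29, limma adjusted p = 0.0185). It stood at 7.69, 7.41, 7.73, 6.97 and 7.57 after treatment, against 6.05, 5.30, 7.28, 5.38 and 5.41 before, with animal 4 high before treatment. The cyclins that drive mitosis also rose, CCNA2 by 0.92 and CCNB2 by 0.89, although CCNB2 was detected on 4 of 5 arrays after and 2 of 5 before. OIP5, which helps load the centromeric histone, was undetected on all 5 arrays before treatment and at least 1.68-fold higher after it (limma adjusted p = 0.0448). TEDC2, which takes part in centriole assembly, rose by 1.03, with animal 1 at 6.37 before treatment and the other animals at 4.81 to 5.01.

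Of the 41 mitosis and kinetochore genes tested 4 rose, none fell and 37 were not called, with a median of 0.31 and 33 genes above 0. By comparison, 42.4% of all genes tested had a change above 0. Among the genes not called, CENPM had a change of 1.26 (adjusted p = 0.0745), UBE2C of 0.75 and TOP2A, the topoisomerase of dividing cells, of 0.53. The median in single animals ran from 0.02 to 0.75.

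For DNA synthesis, TYMS, the enzyme that makes thymidylate, had values of 8.82, 7.96, 8.51, 6.29 and 8.60 after treatment, against 6.95, 6.37, 7.64, 5.49 and 6.10 before. Animal 5 had the lowest value at both times, and its later value of 6.29 lay within the earlier range. TYMS rose by 1.53 (SE 0.26, limma adjusted p = 0.00865). GINS2, a subunit of the replicative helicase, rose by 1.22 with the same adjusted p, and animal 5 was again low, at 5.83 after treatment where the other animals had 7.33 to 7.86. Of 29 genes of DNA replication and nucleotide synthesis these 2 rose and none fell, and the helicase subunits MCM4 (0.96), MCM5 (0.70) and MCM7 (0.46) did not pass. The list's median was 0.23.

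Of the histone genes, whose replication-dependent members are transcribed as DNA is copied, 5 rose. H4C12 had values of 8.91, 8.79, 9.46, 8.39 and 9.02 after treatment, against 7.17, 7.45, 8.45, 6.63 and 7.39 before, and rose by 1.50 (SE 0.24, limma adjusted p = 0.00602). H4C9 had 9.04, 7.52, 8.63, 8.27 and 7.87, against 7.01, 6.41, 7.43, 6.68 and 6.72, and rose by 1.42 (SE 0.23, limma adjusted p = 0.0070). H4C9 did not overlap between the times, whereas H4C12 did through animal 4, which was high at both.

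The histone genes H4C3, H1-5 and H2BC4 were called as well. H4C3 rose by 0.60, at 13.35 to 14.20 after treatment and 12.61 to 13.64 before. The linker histone gene H1-5 rose by 1.12, in 4 of 5 animals, and was detected on 4 arrays after and 1 before. H2BC4 was detected on 3 arrays after treatment and on none before, and was at least 1.40-fold higher (limma adjusted p = 0.0395). In all, 5 of the 26 histone genes tested rose and none fell, with a median of 0.54. Changes above 0 were found for 24 (92.3%, against 42.4% of all genes tested). Histone genes are near-identical copies of each other, so a probe may read several of them, and their messages mostly lack the poly(A) tail that common amplification primers use. The control antibody arm also had rises of H4C12 (0.96) and H4C3 (0.54), and a median of 0.33 over the 26 histone genes.

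The genes induced by type I interferon included the largest rise of all called genes. IFI27, a mitochondrial protein induced by interferon alpha, had values of 10.01, 10.42, 9.98, 8.64 and 11.22 after treatment, against 8.41, 8.95, 6.90, 5.82 and 9.07 before. It rose by 2.23 (SE 0.25, limma adjusted p = 9.6e-05), or 4.68-fold, and by 1.47 to 3.08 in single animals. ISG15, a ubiquitin-like modifier, had 11.21, 11.85, 11.49, 10.79 and 11.12 after treatment, against 9.02, 10.02, 9.69, 8.21 and 9.87 before, without overlap. It rose by 1.93 (SE 0.25, limma adjusted p = 5.8e-04). In the control arm ISG15 had a change of 0.83, higher in 6 of 6 animals (limma adjusted p = 0.0577). The difference between the arms was 1.10 (limma adjusted p = 0.346).

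These 2 were the called genes among the 28 of the type I interferon list, of which 21 had changes above 0 (75%, against 42.4% of all genes tested). The list's median was 0.23 and lay between 0.08 and 0.32 under the other scalings and background settings. Other classical members stayed short of the threshold, such as IFI6 (0.69, adjusted p = 0.213), IRF7 (0.46), ISG20 (0.38) and IFITM1 (0.35), and TRIM22 had a change of -0.48.

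Outside that list, GBP2, a guanylate binding protein induced most strongly by interferon gamma, had 7.79, 9.68, 8.00, 8.55 and 8.94 after treatment, against 7.41, 8.01, 7.00, 7.95 and 7.12 before, and rose by 1.09 (SE 0.24, limma adjusted p = 0.0409). The transcript annotated as the pseudogene GBP1P1 rose by 1.32 without overlap, at 8.26 to 9.37 after treatment and 7.15 to 7.73 before. PSMB10, an immunoproteasome subunit that replaces its constitutive counterpart during antigen processing, had 12.99, 13.39, 12.85, 12.83 and 13.15 after treatment, against 12.46, 12.28, 12.26, 12.34 and 12.57 before. It rose by 0.66 (SE 0.14, limma adjusted p = 0.0351), again without overlap.

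Of the MHC class II genes, which activated human T cells express, 2 rose. HLA-DRA, the invariant alpha chain of HLA-DR, had 11.35, 9.92, 10.48, 10.79 and 11.01 after anti-IL-15, against 10.42, 8.27, 9.88, 9.82 and 9.52 before. Each animal rose, and HLA-DRA was higher by 1.13 (SE 0.22, limma adjusted p = 0.0241), with a second probe at 0.76. HLA-DMB, a chain of the molecule that loads peptide onto class II, rose by 1.06 (SE 0.23, limma adjusted p = 0.0409), at 6.83 to 8.03 after treatment and 5.92 to 6.90 before. Of 13 genes of this list these 2 rose and none fell, and the median was 0.47. Changes above 0 were found for 11 (84.6%, against 42.4% of all genes tested). HLA-DMA (0.91, adjusted p = 0.0513), HLA-DRB4 (1.00), CD74 (0.54) and the master regulator CIITA (0.47) were not called. Beside this, the summed linear intensity of 18 monocyte and dendritic cell markers, 7 of which were never detected on the 10 arrays, was 2630 to 5579 after treatment and 2973 to 4897 before, and none of the 7 that were tested was called. CD14, CD68, ITGAX and TYROBP, the last also a natural killer cell marker, were detected on all 10. The sum is mostly CD68, at 10.97 to 11.96 after and 10.62 to 11.53 before, and TYROBP, at 7.15 to 11.22 and 8.54 to 10.46. CD14 had a change of -0.52 (adjusted p = 0.279). LYZ, the lysozyme gene, was detected on 2 of 5 arrays after treatment and on none before, and was not called (limma adjusted p = 0.282). Its mean was at least 1.23-fold higher, which rests on changes of 2.07 in animal 5 and 0.97 in animal 6. In animals 1, 2 and 4 its changes were 0.19, -0.18 and -0.20. The summed intensity of 11 B cell markers, 7 of them never detected, was 269 to 375 after treatment and 269 to 409 before. Their part in the class II result was not tested.

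**Figure D2:**
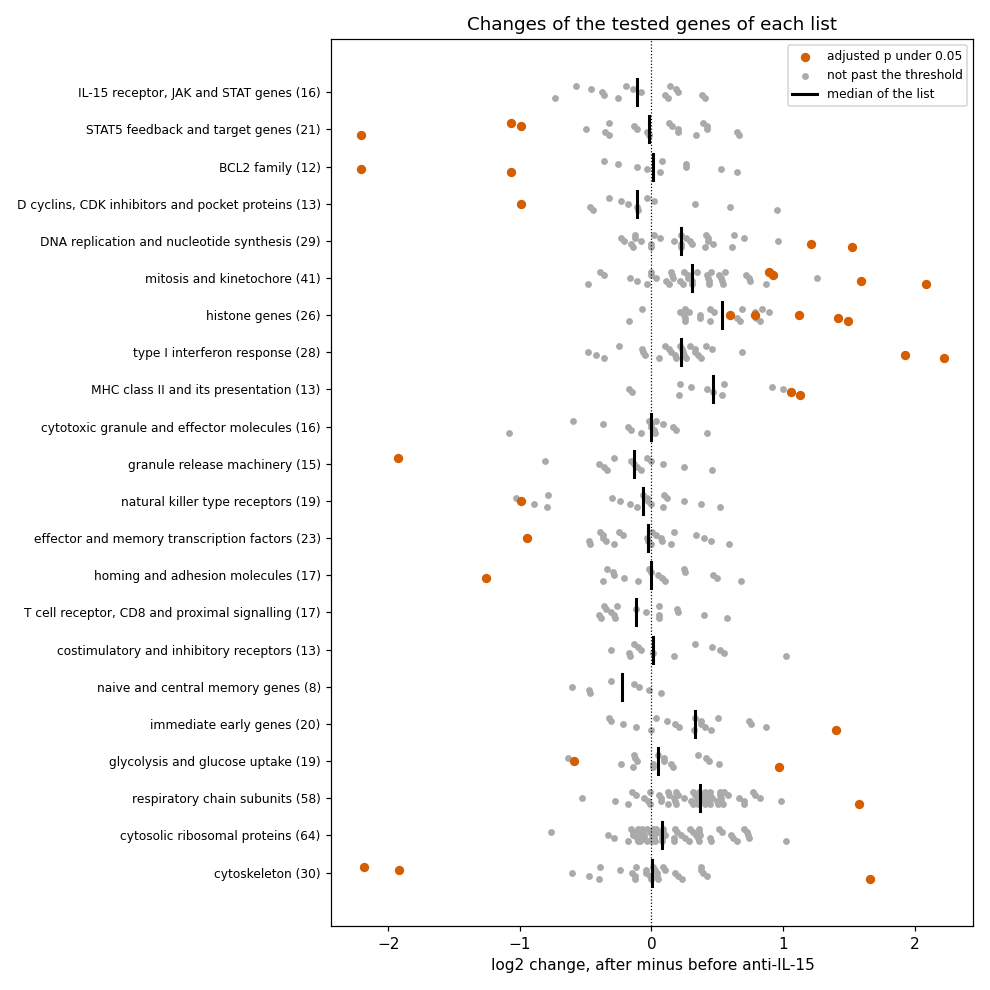
Log2 change after anti-IL-15 (x axis, after minus before) of every tested gene of 22 gene lists, with the number tested in parentheses. Grey points are genes not past the threshold, orange points are genes with a limma adjusted p under 0.05, and the black bar is the median of the list, highest for the histone genes at 0.54.

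Of the genes of granule release, 1 fell and none rose. RAB27B, a small GTPase that docks secretory granules at the plasma membrane, had 7.89, 7.22, 6.23, 7.96 and 7.16 after treatment, against 10.20, 8.74, 8.85, 9.78 and 8.53 before. All later values lay below the earlier ones. It fell by 1.93 (SE 0.23, limma adjusted p = 1.6e-04), or 3.81-fold, and it was called in 22 of 24 alternatives. Its better known relative in T cells, RAB27A, had a change of -0.36, the effector SYTL2 of -0.81 (adjusted p = 0.120, lower in 5 of 5 animals) and SYTL1 of -0.28. RAB27B was the called gene among 15 of granule release, which had a median of -0.13.

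None of the 16 cytotoxic granule and effector genes tested was called. PRF1, which encodes perforin, had 9.54, 8.35, 9.21, 8.68 and 9.83 after treatment, against 10.92, 9.81, 9.84, 11.07 and 9.38 before. It was lower in 4 of 5 animals and higher in animal 6, with a change of -1.08 (SE 0.32, limma adjusted p = 0.113). Without animal 6 the change of PRF1 was -1.47 and it passed the threshold. In the control arm PRF1 was lower in 6 of 6 animals and was called (-1.46, limma adjusted p = 0.0185), and the difference between the arms was 0.37 (adjusted p = 0.831). GZMB was at 8.29 to 8.83 after treatment and 8.10 to 9.24 before. The proteoglycan SRGN that packs the granules was lower in 5 of 5 animals with a change of -0.37 (adjusted p = 0.270).

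The surface receptors CX3CR1 and NCR3 fell. CX3CR1, the fractalkine receptor that marks strongly cytotoxic cells in blood, had 9.00, 8.48, 8.45, 8.65 and 8.33 after treatment, against 10.90, 8.99, 9.68, 10.35 and 9.27 before. It fell by 1.26 (SE 0.27, limma adjusted p = 0.0382), with a second probe at -1.01, and the ranges met only through animal 1 after and animal 2 before treatment. NCR3, the activating receptor NKp30 of natural killer cells, had 9.12, 9.69, 8.90, 8.46 and 8.97 after treatment, against 10.89, 10.48, 10.01, 8.29 and 10.43 before, and fell by 0.99 (SE 0.22, limma adjusted p = 0.0440). Animal 5 was the exception, with a low level at both times.

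NCR3 was the called gene among 19 natural killer type receptors, whose median was -0.06 and 0.07 with 75th percentile scaling. KIR3DL1 (-1.03, adjusted p = 0.0983, lower in 5 of 5 animals), KIR3DL2 (-0.89) and KLRF1 (-0.79) were not called, and the KIR probes were made for human genes of a family that differs in macaques. NCR3 also stands in a list of 11 natural killer cell markers, 8 of which were detected on some array. Their summed linear intensity was 1637 to 4172 after treatment and 2218 to 4330 before. KLRF1, FCGR3A, TYROBP, NCR3 and KIR2DL4 were detected on 5 of 5 arrays at both times, and KLRC1 on 5 of 5 after and 3 of 5 before. NCAM1 was detected on none of 5 arrays after and 1 of 5 before, and NCR1, FCER1G and SH2D1B on none. The part of natural killer cells in the sorted population was not tested. Among 17 homing and adhesion molecules CX3CR1 was the called gene, ITGAE, the integrin chain CD103, had a change of 0.68 (adjusted p = 0.159), and the median was -0.01 against 0.06 with 75th percentile scaling.

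Among 23 transcription factors of effector and memory cells, RUNX3, which keeps the CD8 lineage and its cytotoxic programme, was called. It had 11.22, 11.25, 11.54, 11.52 and 11.16 after treatment, against 12.71, 11.96, 12.00, 12.52 and 12.21 before, without overlap. RUNX3 fell by 0.94 (SE 0.18, limma adjusted p = 0.0188), although another, dimmer RUNX3 probe had a change of 0.23. KLF2, a factor of quiescence, was lower in 5 of 5 animals (-0.47, adjusted p = 0.106), and the activation factor BATF was higher in 5 of 5 (0.59, adjusted p = 0.109).

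No gene called belonged to the lists of the T cell receptor and CD8, of naive and central memory cells, of costimulatory and inhibitory receptors or of cytosolic ribosomal proteins. CD8A had 12.54, 12.37, 12.32, 12.13 and 12.52 after treatment, against 12.98, 12.68, 12.74, 13.19 and 12.30 before, a change of -0.40 (SE 0.15, limma adjusted p = 0.207), and its other probes had changes of 0.31 and -0.35. In the control arm CD8A was lower in 6 of 6 animals and was called (-0.77, limma adjusted p = 0.0108). The difference between the arms was 0.37 (limma adjusted p = 0.580). CD3D was higher in 5 of 5 animals by a small margin (0.21, adjusted p = 0.252). LAG3, an inhibitory receptor induced by activation, had 9.95, 9.12, 9.48, 7.75 and 9.08 after treatment, against 8.27, 8.67, 7.48, 7.77 and 8.07 before. Its change of 1.02 (SE 0.28) had an adjusted p of 0.0886, with animal 5 unmoved at 7.75 after and 7.77 before.

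**Figure D3:**
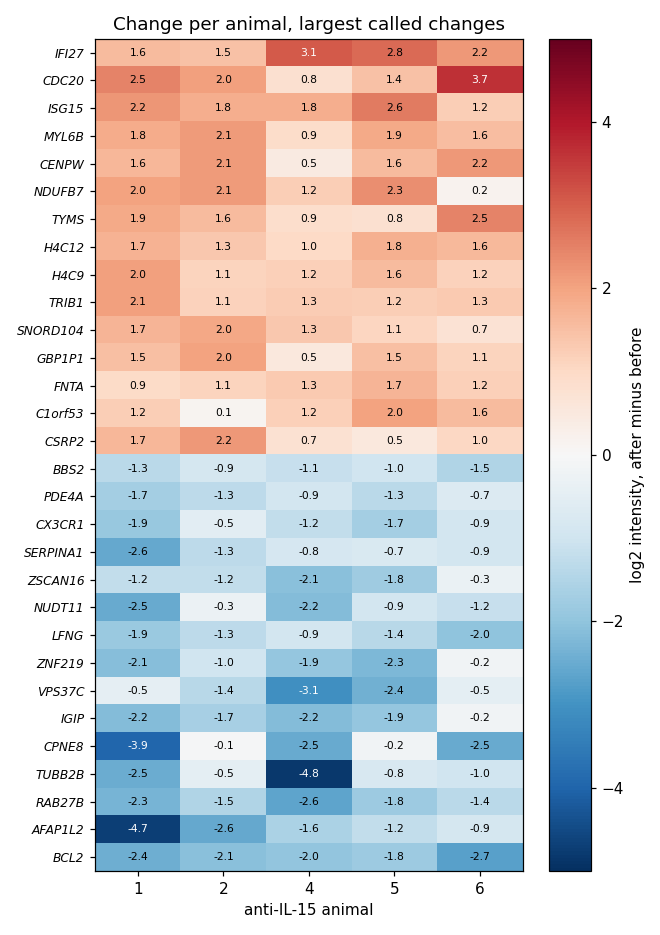
Log2 change (after minus before anti-IL-15) in each of the 5 animals (columns) for the 15 largest rises (upper rows) and 15 largest falls (lower rows) among called genes that moved the same way in every animal, with the value in each cell. BCL2 fell by 1.8 to 2.7 in every animal, while CPNE8 and TUBB2B rest on large falls in animals 1, 4 and 6 and in animals 1 and 4.

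Among other cell surface and signalling genes, TNFRSF1A, the death domain receptor for tumour necrosis factor, had 9.48, 9.84, 9.05, 9.89 and 10.56 after treatment, against 10.80, 11.09, 10.38, 11.05 and 10.60 before, and fell by 1.02 (SE 0.21, limma adjusted p = 0.0315). In animal 6 its change was -0.04 and in the other animals it fell by 1.15 to 1.33. TRIB1, a pseudokinase adaptor for protein degradation listed with the immediate early genes, had 8.88, 7.78, 8.14, 7.72 and 8.99 after treatment, against 6.82, 6.63, 6.87, 6.48 and 7.68 before. It rose by 1.41 without overlap and was the called gene among 20 of that list, where NFKBIA (0.74), IER2 (0.75) and JUNB (0.41) were not called and the median was 0.33.

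ADCY7, an adenylyl cyclase that makes cyclic AMP, had 7.57 to 8.27 after treatment and 8.64 to 9.00 before, and fell by 0.87. PDE4A, a phosphodiesterase that degrades it, had 7.14 to 8.03 after treatment and 8.38 to 9.36 before, and fell by 1.18. Neither overlapped between the times. LFNG, the glycosyltransferase that modifies Notch, fell by 1.49 (SE 0.27, limma adjusted p = 0.0144), with 7.75, 6.75, 7.70, 7.31 and 6.75 after treatment, against 9.60, 8.08, 8.61, 8.70 and 8.75 before. Another, dimmer LFNG probe had a change of -0.24 (SE 0.18). PTPN4, a tyrosine phosphatase of T cell receptor signalling, fell by 1.05, at 7.95 to 8.37 after and 8.83 to 9.73 before.

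Of the 30 cytoskeleton genes tested 1 rose, 2 fell and 27 were not called, with a median of 0.00501. MYL6B, a light chain of non-muscle myosin, had 10.78, 10.24, 10.14, 8.51 and 10.30 after treatment, against 8.94, 8.12, 9.22, 6.63 and 8.74 before. Animal 5 was low at both times, and MYL6B rose by 1.66 (SE 0.24, limma adjusted p = 0.00158) in 5 of 5 animals. In the control arm MYL6B had a change of 0.72, higher in 6 of 6 animals (limma adjusted p = 0.0727). The difference between the arms was 0.95 (limma adjusted p = 0.367). AFAP1L2, an adaptor that links Src kinase to actin and phosphoinositide signalling, had 6.48, 7.80, 9.29, 7.56 and 6.27 after treatment, against 11.18, 10.36, 10.86, 8.78 and 7.16 before. It fell by 2.18 (SE 0.43, limma adjusted p = 0.0249), with single falls of 0.89 to 4.69, and by 1.56 without animal 1, where it was not called. Another, dimmer AFAP1L2 probe had a change of -0.85.

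TUBB2B, a beta tubulin and the other called fall of that list, fell by 1.92 (SE 0.44, limma adjusted p = 0.0448). Its later values were 7.94, 7.58, 4.28, 4.32 and 6.02, against 10.41, 8.09, 9.12, 5.11 and 7.01 before, and it was detected on 3 arrays after and 5 before. Outside the list, the calcium-dependent membrane protein CPNE8 fell by 1.85, with 4.93, 4.27, 4.31, 4.36 and 4.59 after treatment, against 8.87, 4.35, 6.83, 4.53 and 7.12 before. It was detected on 1 array after and 3 before, so its size rests on animals 1, 4 and 6. The LIM domain genes CSRP2 and PDLIM7, also outside it, rose by 1.22 and 1.01, and the dynein light chain DYNLRB2 rose by 1.01.

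Of metabolic genes, SLC2A3, a glucose transporter of high affinity, had 9.40, 9.86, 9.36, 10.27 and 9.66 after treatment, against 8.35, 8.92, 7.96, 9.04 and 9.41 before, and rose by 0.97 (SE 0.22, limma adjusted p = 0.0453). TXNIP, which restrains glucose uptake, had 11.57, 11.94, 11.66, 11.34 and 10.91 after treatment, against 12.27, 12.39, 11.89, 12.41 and 11.40 before. TXNIP fell by 0.59 in 5 of 5 animals with overlapping ranges. The other 17 of 19 genes of glycolysis and glucose uptake were not called.

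NDUFB7, a subunit of respiratory complex I, had 9.29, 9.82, 9.63, 9.92 and 9.12 after treatment, against 7.26, 7.69, 8.41, 7.60 and 8.93 before, without overlap. It rose by 1.58 (SE 0.32, limma adjusted p = 0.0281), though by 0.19 in animal 6. It was the called gene among 58 respiratory chain subunits, of which 49 had changes above 0 (84.5%, against 42.4% of all genes tested). In the control arm NDUFB7 had a change of 0.87, higher in 5 of 6 animals (limma adjusted p = 0.102). The median of the 58 was 0.21 there, with 2 called higher and 1 lower. ATP5F1EP2, COX7A2L, UQCRBP1 and UQCRHL, pseudogenes or relatives of subunit genes, were taken out of the list after the values were seen, and with these 4 it held 62 tested genes, 1 called and 52 above 0, with a median of 0.36. The median of the 58 was 0.37 over the animals together and 0.23 to 0.62 in single animals. COX6B1 (0.71, adjusted p = 0.0503), COX6A1 (0.98) and UQCRH (0.83) were higher in 5 of 5 animals without a call. MRPL51, a protein of the mitochondrial ribosome, rose by 0.76, at 11.72 to 12.45 after treatment and 10.87 to 11.65 before.

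SNRPG, a core protein of the spliceosomal particles, had 12.89, 12.83, 13.18, 12.88 and 12.85 after treatment, against 12.56, 12.40, 12.48, 12.46 and 12.51 before, and rose by 0.45 (SE 0.10, limma adjusted p = 0.0469), the smallest change among the called genes. HNRNPLL, the splicing factor that directs CD45 isoforms in memory T cells, had 6.75 to 7.53 after treatment and 5.58 to 6.60 before, and rose by 1.03. Probes annotated to the small nucleolar RNAs SNORD43 and SNORD104 and to the Cajal body RNA SCARNA22 rose by 1.56, 1.35 and 1.15. SNORD43 was detected on 4 arrays after and 1 before and was lower after treatment in animal 2.

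Of the genes of vesicle traffic and protein modification, TRAPPC6A, part of a tethering complex, rose by 0.87, and FNTA, the alpha subunit of the enzymes that attach prenyl groups, rose by 1.25, at 6.48 to 7.57 after treatment and 5.31 to 5.87 before. VPS37C, a subunit of the ESCRT-I sorting complex, fell by 1.57, with 4.34 after and 7.42 before in animal 4. PCMT1, which repairs damaged aspartyl residues, fell by 0.75 and DCAF16, a substrate receptor of a ubiquitin ligase, by 1.14, both without overlap. The metallothionein MT2A rose by 0.73 and was detected on all 5 arrays after and 1 before. SERPINA1, the protease inhibitor alpha-1-antitrypsin, had 7.50, 6.14, 7.18, 6.27 and 6.96 after treatment, against 10.05, 7.46, 8.02, 7.01 and 7.87 before, and fell by 1.27 (SE 0.27, limma adjusted p = 0.0382). Another, dimmer SERPINA1 probe had a change of -0.74.

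Several regulators of chromatin and transcription were among the called genes. CBX7, a Polycomb protein, fell by 0.82, with 8.93, 9.13, 9.03, 9.62 and 9.71 after treatment, against 10.04, 9.91, 10.10, 10.41 and 10.07 before, without overlap. The zinc finger genes ZNF219, ZSCAN16, ZNF248 and ZNF318 fell by 1.51, 1.34, 0.97 and 0.96, and FOXD2 fell by 0.92. TSHZ3 was detected on none of the arrays after treatment and on 5 before, a fall of at least 1.19-fold (limma adjusted p = 0.0440). IKZF5, a relative of Ikaros, rose by 0.84. Further falls were those of BBS2, a ciliary trafficking gene whose other probe had a change of 0.04 (-1.18), of the mitochondrial enzyme HIBCH (-1.08) and of the mitochondrial RNA protein FASTKD1 (-0.84). IGIP, a secreted factor that raises immunoglobulin A production in humans, fell by 1.63 (SE 0.27, limma adjusted p = 0.0070), with 6.22, 6.23, 5.16, 5.79 and 6.72 after treatment, against 8.40, 7.89, 7.35, 7.74 and 6.90 before.

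The control arm shared the labels of time and was set beside these changes. In it 202 genes were called (2.2%), 66 higher and 136 lower. Of all 9190 genes tested, 4122 had a change above 0 there and 5068 a change below 0. Of the 42 genes higher after anti-IL-15, 35 had a change above 0 with the control antibody and 3 were called higher there, H4C12, H4C3 and the probe annotated as MIR761, while HLA-DRA was called lower. Of the 35 lower genes, 29 had a change below 0 and 3 were called lower there, CX3CR1, SERPINA1 and TXNIP. The median change of the 42 genes was 1.08 with anti-IL-15 and 0.31 in the control arm, and that of the 35 was -1.08 and -0.33. The genes were chosen on the anti-IL-15 arm, so its larger sizes follow in part from the choice.

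The difference between the arms was tested for every gene, and HLA-DRA alone passed (0.0109%). With anti-IL-15 its change was 1.13, higher in 5 of 5 animals, and with the control antibody it was -0.97, lower in 5 of 6 animals, where HLA-DRA averaged 8.91 ± 0.83 after and 9.88 ± 0.88 before treatment (SD, n = 6). The difference was 2.10 (SE 0.29, limma adjusted p = 0.00632). It was not called without anti-IL-15 animal 2 or with no replicate block. BCL2 had changes of -2.21 with anti-IL-15 and -0.69 in the control arm, and the difference of -1.52 (SE 0.29) had an adjusted p of 0.105. For IFI27 they were 2.23 and 0.50 (difference 1.72, adjusted p = 0.105), and for RAB27B -1.93 and -0.26 (difference -1.67, adjusted p = 0.105). TXNIP had changes of -0.59 with anti-IL-15 and -0.74 in the control arm (difference 0.15, SE 0.18). CX3CR1 had changes of -1.26 and -1.43 (difference 0.17, SE 0.37), and H4C3 of 0.60 and 0.54.

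**Figure D4:**
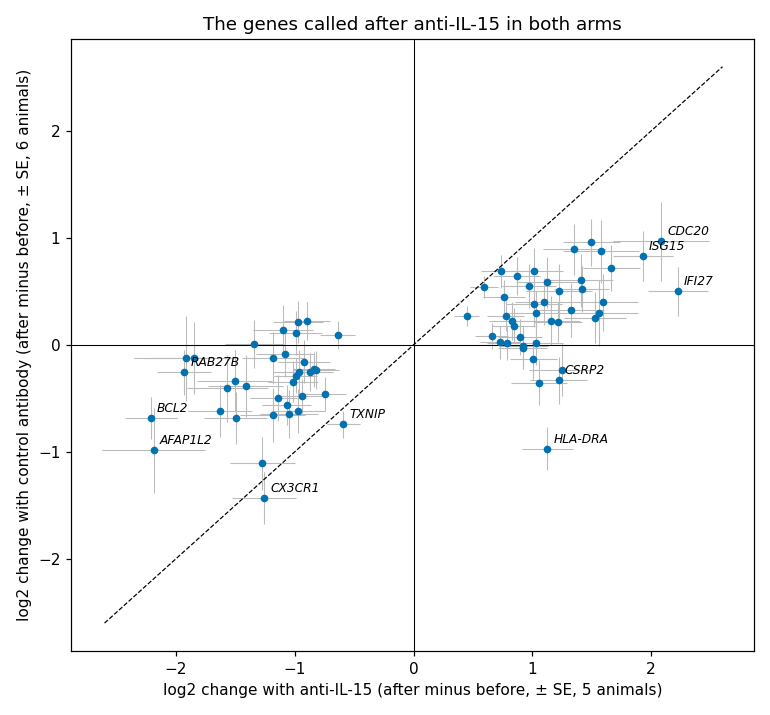
Log2 change with anti-IL-15 (x axis, 5 animals) against the log2 change with the control antibody (y axis, 6 animals) of the 77 genes called after anti-IL-15, each with its SE, and the dashed line of equal change. HLA-DRA, at 1.13 and -0.97, is the gene whose difference between the arms passed the test, and CX3CR1 and TXNIP lie near the dashed line.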

How the data were processed

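Total RNA of sorted CD8+ TEM was measured on Illumina bead arrays, after amplification of a fixed RNA mass from samples above a quality threshold, per the labels' protocols. The authors deposited 1 linear intensity per probe and array, raw and with medians between 92 and 104, and beside it a detection p-value, per the file headers. The authors also deposited log2 intensities, a table that ranks probes as the signals do within each array and was used as an alternative. The submitters' processing notes name limma with no version in the sources used here.

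The intensities of all 23 arrays were corrected by normexp (offset 16, control mean and spread estimated through the detection p-values), quantile normalised and log2 transformed, using limma 3.58.1 in R 4.3.3. The 9 probes with a signal of 0 on some array were left out. Requiring a detection p under 0.05 on at least 5 of the 23 arrays left 15744 of 47230. The annotation table gave 1 gene symbol for 11131 of them, several for 1 and none for 4612. For the 1660 genes with several kept probes the brightest was used, which left 9190 genes, and other probes' changes are given where they were opposite or bear on a gene described.

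Changes are after minus before treatment on the log2 scale. They came from 1 limma fit over the 22 arrays of the 11 paired animals with animal as a block, 9 residual degrees of freedom before moderation and a variance trend. P-values are two-sided and adjusted by the Benjamini-Hochberg method over all genes, with a threshold of 0.05. The difference between the arms is the interaction of the same fit. Pairing comes from the donor label, and the deviations from the group means of both arrays of an anti-IL-15 animal correlated at 0.14 to 0.41 (median 0.31), against a median of -0.07 between different animals. The arrays are of separate animals, and their number limits the precision. For a probe undetected on all 5 arrays of a group, the fold compares the means of the log2 values. Values of that group below the dimmest detected signal of their array are raised to it. The fold is then a lower limit for the means and carries no sampling error.

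Named are the 15 largest rises and 15 largest falls among called genes that moved the same way in all animals, the called members of 22 gene lists and 7 marker lists, the 2 smallest p-values of lists without a call, other called genes of known role, a fixed set around IL-15 signalling and genes whose change differed between the arms. The members and lists were chosen with earlier results of these data known, and 4 genes were taken out of the respiratory chain list after its values were seen. The fit was tested on simulated data. Alternatives were an offset of 50, no background correction, 75th percentile scaling, the authors' table, detection on all 10 arrays, no detection filter, every probe, the 10 arrays alone, no variance trend, no replicate block, cell number and 28S as covariates, and leaving out each animal. Haemoglobin as a covariate, and leaving out control animals for the anti-IL-15 count, were chosen after seeing the data.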

Additional observations from a re-analysis of the deposited data

Results flagged for a closer look

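The change of HLA-DRA differed between the arms by 2.10, with 1.13 after anti-IL-15 and -0.97 after the control antibody, as tested by the interaction of the limma fit (adjusted p = 0.00632).

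In 11 of 226 groups of 5 arrays examined, 1 animal lay far from the other 4 by Dixon's ratio of gap to range, where chance gives about 1 in 20. Animal 5 was low after treatment for GINS2 (5.83 against 7.33 to 7.86, ratio 0.74), MYL6B (8.51 against 10.14 to 10.78, ratio 0.718) and TM6SF1 (4.66 against 6.29 to 6.67, ratio 0.81). H4C3 was low in animal 5 both after treatment (13.35, ratio 0.753) and before it (12.61, ratio 0.718). Animal 4 was high for SNRPG after treatment (13.18 against 12.83 to 12.89, ratio 0.829). Before treatment animal 6 was low for C1orf53 (4.86, ratio 0.722), PIM1 (6.14 against 7.57 to 7.67, ratio 0.93) and SHC1 (9.27, ratio 0.827). Also before treatment, animal 2 was low for CSRP2 (4.56 against 5.80 to 6.30, ratio 0.713) and animal 1 was high for TEDC2 (6.37, ratio 0.87).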

How the results depend on the processing

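The count of 77 genes called after anti-IL-15 stayed between 53 and 103 with other offsets, scalings and tables, with detection on all 10 arrays, and in the 10 arrays alone. It was 29 with no detection filter, 41 over every kept probe, 34 with no variance trend, 18 with the 28S probe, 49 with haemoglobin and 2 with cell number as a covariate, and 5 to 164 with 1 animal left out. In the fit with no replicate block, which ignores the pairing by animal, it was 1 (1059 at an unadjusted p under 0.05), and the count for the difference between the arms was 0 (607 unadjusted). That count of 1 was 2 with no background correction, the authors' table, no variance trend or cell number, and 15 with 28S. With 1 animal left out it was 0 to 2, the 0 (760 unadjusted) without anti-IL-15 animal 2 and the 2 without control animal 4.

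No called gene reversed. Uncalled genes with small changes did. With cell number as a covariate the changes were 0.70 for IL2RG, 0.42 for JAK1, -0.23 for STAT5A and -1.55 for CD79B. With 28S as a covariate they were 0.0738 for IL2RG, 0.10 for JAK1 and -0.46 for CD79B. With 75th percentile scaling GZMB was at 0.00653 and CD8B at 0.11, and with haemoglobin as a covariate GZMB was at 0.0397. With 1 animal left out JAK1 ran from -0.22 to 0.0723, GZMB from -0.13 to 0.23, CD8B from -0.15 to 0.16 and CD79B from -0.0385 to 0.23. The cause of these shifts was not tested. Of the 77 genes, 66 were called with an offset of 50, 57 with no background correction, 69 with 75th percentile scaling and 59 in the authors' table. Probes near background, such as those of SOCS2, CISH and CD8B, can show falls only in part.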

Other observations

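Animal 3, whose only array was taken after anti-IL-15 and entered no test, was set beside the arrays taken before treatment, which the choice of the called genes had used. Its level lay above all 5 arrays taken before treatment for 27 of the 42 higher genes, where 1420 of all genes tested did so (15.5%). It lay below all 5 for 24 of the 35 lower genes, where 1485 of all genes tested did so (16.2%). Set against the 11 arrays taken before treatment in both arms, the counts were 23 of 42 higher genes, with 821 of all genes above, and 19 of 35 lower genes, with 849 of all genes below. In animal 3 BCL2 stood at 4.61, against 7.18 to 7.58 before treatment in the paired animals, and RAB27B at 7.16, against 8.53 to 10.20. ISG15 was at 11.14 in animal 3, against 8.21 to 10.02, IFI27 at 10.79, against 5.82 to 9.07, and CDC20 at 9.55, against 4.96 to 8.44. HLA-DRA at 10.35 lay within the earlier range of 8.27 to 10.42, and GBP1P1 at 6.07 lay below its range of 7.15 to 7.73.

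Of 15744 probes tested one by one, 41 were called, 26 higher and 15 lower, and 7 of them had no gene in the annotation table. Called genes not yet named were VSIG8 (1.02), C1orf53 (1.22), SPMIP8 (at least 1.34-fold higher) and CFAP45 (0.83) among the rises. The falls were those of NUDT11 (-1.41, and -0.61 with a dimmer probe), LIN7B (-1.10), TM6SF1 (-0.97) and CMTM4 (-0.90).

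Of the 22 gene lists 6 held no called gene. Their medians after anti-IL-15 were -0.11 for the IL-15 receptor, JAK and STAT genes, -0.00293 for cytotoxic molecules, -0.12 for the T cell receptor and CD8 (17 genes), -0.22 for naive and central memory cells (8 genes), 0.01 for costimulatory and inhibitory receptors (13 genes, and -0.01 with no background correction) and 0.08 for cytosolic ribosomal proteins (64 genes). With 75th percentile scaling those of cytotoxic molecules and of the T cell receptor list were 0.10 and 0.02. In the ribosomal list RPL36A was detected on 4 of 5 arrays after treatment and on none before. Its mean was at least 1.18-fold higher, without a call (limma adjusted p = 0.0642), while RPS25 had a change of -0.76.

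Among the 7 marker lists of other cell types, NCR3 was the called gene. Haemoglobin differed widely between animals, with HBB at 9.32 to 13.89 after treatment and 9.60 to 14.17 before, a change of -0.73 (adjusted p = 0.210). HBA1 (0.11, at 6.51 to 11.61 after and 5.77 to 10.30 before), HBA2 (0.02) and HBD (0.16, at 4.38 to 9.03 after and 4.47 to 7.51 before) had changes above 0, as did 4 of the 8 tested genes of the list. The summed intensity of 13 platelet and erythrocyte markers was 1657 to 31791 after and 1480 to 27297 before treatment, and its part in the results was not tested beyond the haemoglobin covariate. Neutrophil markers summed to 244 to 429 after treatment and 244 to 297 before, with 7 of 10 never detected, CAMP at 0.84 and FCGR3B at -0.22. CD4 and regulatory T cell markers summed to 349 to 436 after and 313 to 462 before treatment, with changes of 0.55 for ICOS and -0.52 for IKZF4. The 5 gamma delta and MAIT cell markers with a probe summed to 13637 to 15783 after and 13322 to 15261 before treatment. Most of this sum was CCR6, detected on 5 of 5 arrays at both times, at 13.72 to 13.94 after and 13.69 to 13.89 before. What the CCR6 probe reads in these cells was not tested. ZBTB16 had a change of 0.36 and KLRB1 of -0.24. Of the B cell markers CD79A had a change of -0.35 and CD79B of 0.12.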
